A study of Homo sapiens with 6 samples.

Results

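Condensin and cohesin are ring-shaped protein machines that fold and hold chromosomes, and the 10 genes followed here encode the 8 subunits of the human condensins and the SMC pair of cohesin. They were chosen by name, with earlier results of these data known. The genes are SMC2, SMC4, NCAPD2, NCAPG, NCAPH, NCAPD3, NCAPG2 and NCAPH2 for condensin, and SMC1A and SMC3 for cohesin. Each was listed once among the 53826 entries of every library. The human pancreatic ductal adenocarcinoma lines PK-1 and Panc-1 were left as the control or exposed for 24 h to an antagonist of the retinoic acid receptor RARγ, which was LY2955303 (RARγi-1) or MM11253 (RARγi-2). One mRNA library was made per condition, 6 in all, so no condition has a replicate and a test can only take the lines as repeats of each other. The RNA-seq doses and the vehicle of the controls are not stated in the sources used here, and the other assays of the study used the antagonists at different concentrations. Libraries were assigned by title, since the treatment label of both RARγi-2 libraries names RARγi-1.

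Levels are TPM, a length-corrected share of the library's transcripts, with every value under 1 TPM raised to 1 TPM by the authors. This unit keeps no read numbers, so the depth is unknown and counting error is not given. A log2 fold change is the log2 of (TPM + 1) with an antagonist minus that of its line's control. The added 1 TPM understates the change of low genes. For NCAPG with RARγi-2 in PK-1, the value was -3.54 with it and -3.96 without it. Both comparisons of a line share 1 control library. Variation is gauged here by the robust standard deviation of the difference between the treated libraries of a line over the 500 entries nearest in level, called the spread; it was 0.39 to 0.45 (log2) for the members in PK-1 cells and 0.28 to 0.32 in Panc-1. It contains real differences between the antagonists and misses variation of the control, so it is no upper limit on the noise. The keratin genes KRT8, KRT18 and KRT19, markers of epithelial cells, summed to 10387 to 16086 TPM in the PK-1 libraries, and to 8400 TPM in the control and 1472 to 1761 TPM in the treated libraries of Panc-1, where all 3 were more than 2-fold lower than control. Of 6 markers of other cells, PTPRC, PECAM1, PDGFRB and INS were at the floor in all libraries. CD68 went in PK-1 from 19.8 TPM to 95.0 and 62.6 TPM and PRSS1 from 1.06 TPM to 11.1 and 21.2 TPM, so that the list summed to 20.9 TPM in the PK-1 control, 106 and 83.9 TPM in its treated libraries, and 238 to 276 TPM in Panc-1. Their part in the results was not tested.

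In both complexes, a pair of SMC ATPases forms the arms of a ring that a kleisin protein closes, and HEAT-repeat proteins bind to the kleisin. SMC2 and SMC4 serve both condensins. Condensin I adds the kleisin NCAPH with NCAPD2 and NCAPG, and condensin II adds the kleisin NCAPH2 with NCAPD3 and NCAPG2. Condensin II is nuclear and starts to compact chromosomes in prophase, whereas condensin I reaches them once the nuclear envelope has broken down. Cohesin is built on SMC1A and SMC3 with the kleisin RAD21 and STAG1 or STAG2; it holds sister chromatids together from S phase to anaphase and also folds interphase chromatin into loops.

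Condensin transcripts were lower with either antagonist in both lines, and 7 of the 8 subunits were more than 2-fold lower than control in each comparison. Over all tested entries, those reaching 5 TPM in some library of the line, the share more than 2-fold lower was, for PK-1, 5.67% (RARγi-1) and 14.6% (RARγi-2), and for Panc-1, 7.11% and 13.0%. The median log2 fold change of the 8 subunits was, for PK-1, -1.75 (RARγi-1) and -2.64 (RARγi-2), and for Panc-1, -1.57 and -1.82. The corresponding medians over all tested entries were 0.15 and -0.01 in PK-1 cells, and 0.09 and -0.03 in Panc-1. No member was more than 2-fold higher in any comparison, against 10.7% and 13.9% of all tested entries in the PK-1 comparisons and 8.58% and 9.88% in those of Panc-1. The condensin member short of 2-fold was NCAPH2, the kleisin of condensin II. With cell line as a block, limma fitted to all 12412 entries reaching 5 TPM in some library left 2 residual degrees of freedom, in which a difference between the lines in response counts as noise. At an adjusted p under 0.05, 6 of the 10 members were lower with RARγi-1, against 1.55% of all entries called lower. These were SMC2, NCAPD2, NCAPG, NCAPH, NCAPD3 and SMC1A. Their limma adjusted p ran from 0.036 (NCAPH) to 0.0499 (NCAPG), so this count turns on the exact threshold. With RARγi-2, 9 members were called lower, all but SMC3, against 11.7% of all entries. NCAPH had a log2 fold change over both lines of -2.07 ± 0.28 (SE, limma adjusted p = 0.036) with RARγi-1 and -3.13 ± 0.28 (adjusted p = 0.0077) with RARγi-2, and was lower in both lines. NCAPH2 had -0.72 ± 0.16 (limma adjusted p = 0.067) and -0.67 ± 0.16 (adjusted p = 0.042), and SMC3 -0.50 ± 0.30 (adjusted p = 0.34) and -1.04 ± 0.30 (adjusted p = 0.067), both also lower in each line. SMC4 and NCAPG2, at limma adjusted p = 0.070 and 0.055 with RARγi-1, missed the threshold there although they were past 2-fold in both lines. In bulk RNA, fewer cells in a phase that uses these genes and less RNA per cell cannot be told apart.

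**Figure D1:**
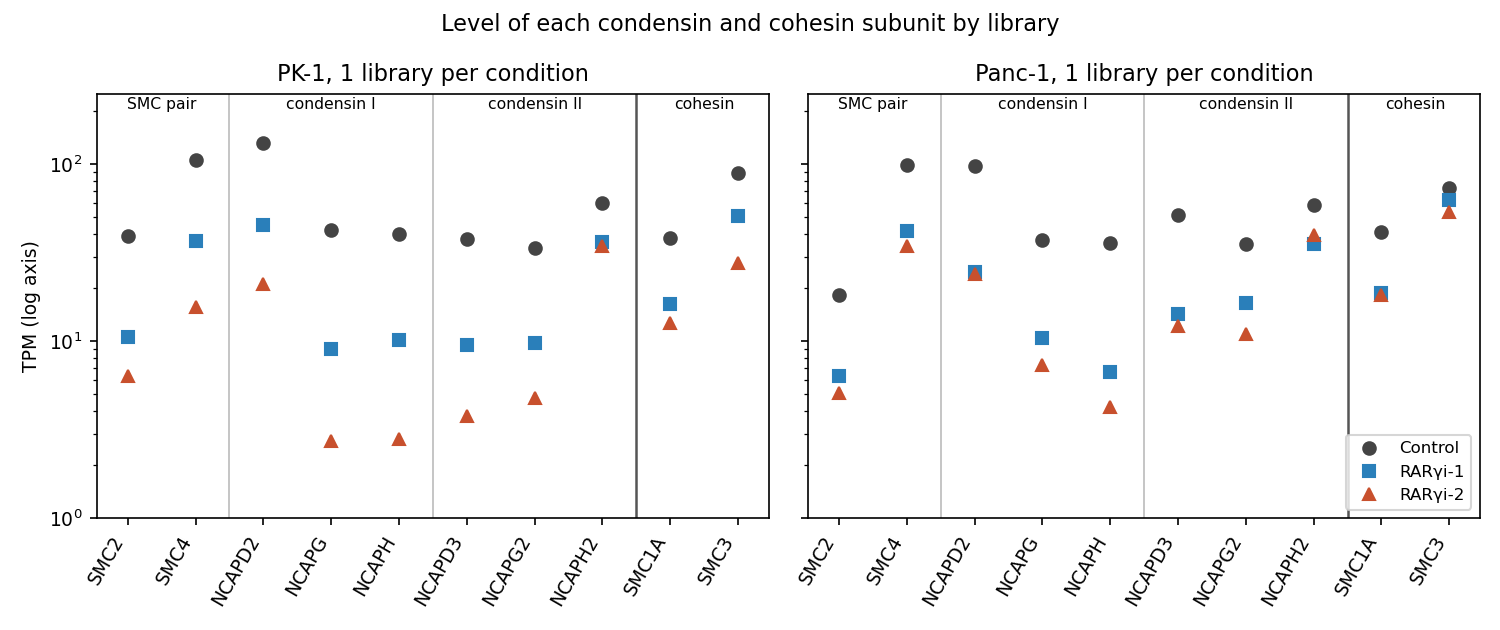
TPM (log axis) of the 10 subunits in the 6 libraries, 1 point per library, with PK-1 on the left and Panc-1 on the right. Circles are controls, squares RARγi-1 and triangles RARγi-2; NCAPG and NCAPH reach 2.74 and 2.79 TPM in the PK-1 RARγi-2 library, while NCAPH2 stays at 34.5 TPM or above in all of them.

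Both SMC ATPases of condensin were more than 2-fold lower in each comparison. SMC2 (Entrez gene 10592) was at 39.1 TPM in the PK-1 control, 10.5 TPM in the RARγi-1 library and 6.38 TPM in the RARγi-2 library, and at 18.2, 6.31 and 5.12 TPM in the Panc-1 libraries in the same order. SMC4 (10051) was more abundant than its partner throughout, at 106, 36.5 and 15.6 TPM in PK-1 cells and 98.5, 42.0 and 34.5 TPM in Panc-1. The control was the highest library of its line for both genes, and RARγi-2 the lowest. The log2 fold changes of SMC2 were -1.80 and -2.44 in PK-1 cells, and -1.39 and -1.65 in Panc-1; those of SMC4 were -1.51 and -2.69, and -1.21 and -1.49. SMC2 was also the member in which the untreated lines differed most, with a difference of Panc-1 minus PK-1 of -1.06 (log2), whereas the other 9 members differed between -0.42 and 0.44.

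Of the subunits particular to condensin I, NCAPH and NCAPG had the lowest mean log2 fold changes of the 10 members, at -2.60 and -2.40. NCAPH (23397), the kleisin, went in PK-1 from 40.2 TPM to 10.1 and 2.79 TPM and, in Panc-1, from 35.9 TPM to 6.69 and 4.26 TPM. NCAPG (64151), a HEAT-repeat subunit, went in PK-1 from 42.6 TPM to 9.02 and 2.74 TPM and, in Panc-1, from 37.1 TPM to 10.4 and 7.30 TPM. For both, every treated library was far below its control, with log2 fold changes of NCAPH from -1.89 (PK-1 RARγi-1) to -3.44 (PK-1 RARγi-2) and of NCAPG from -1.74 (Panc-1 RARγi-1) to -3.54 (PK-1 RARγi-2). NCAPD2 (9918), the other HEAT-repeat subunit, was the most abundant of these 3 in the controls. It went in PK-1 from 132 TPM to 45.4 and 21.0 TPM and, in Panc-1, from 98.0 TPM to 24.7 and 23.8 TPM, where RARγi-2 minus RARγi-1 was -0.05 (log2), within the spread.

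Within condensin II the subunits parted. NCAPD3 (23310) behaved like the condensin I genes, at 37.5, 9.52 and 3.75 TPM in PK-1 cells and 51.3, 14.2 and 12.2 TPM in Panc-1. NCAPG2 (54892) was at 33.7, 9.75 and 4.75 TPM in PK-1 cells and 35.2, 16.4 and 11.0 TPM in Panc-1. Its log2 fold change of -1.06 with RARγi-1 in Panc-1 was the smallest condensin decrease that still passed 2-fold, and the margin was well within the spread. NCAPH2 (29781) was at 60.2, 36.4 and 34.5 TPM in PK-1 cells and 58.7, 35.1 and 39.5 TPM in Panc-1. Its treated libraries were below control, with log2 fold changes of -0.71 and -0.78 in PK-1 cells and -0.73 and -0.56 in Panc-1. These differences were larger than the spread and short of 2-fold in each comparison. At 12.3% and 13.6% of the summed condensin TPM of the controls, NCAPH2 had rank 3 among the 8 transcripts; with RARγi-2 it had rank 1 in both lines, at 37.7% in PK-1 cells and 28.7% in Panc-1. The gene lies on chromosome 22 (50508224 to 50524780, GRCh38.p14).

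**Figure D2:**
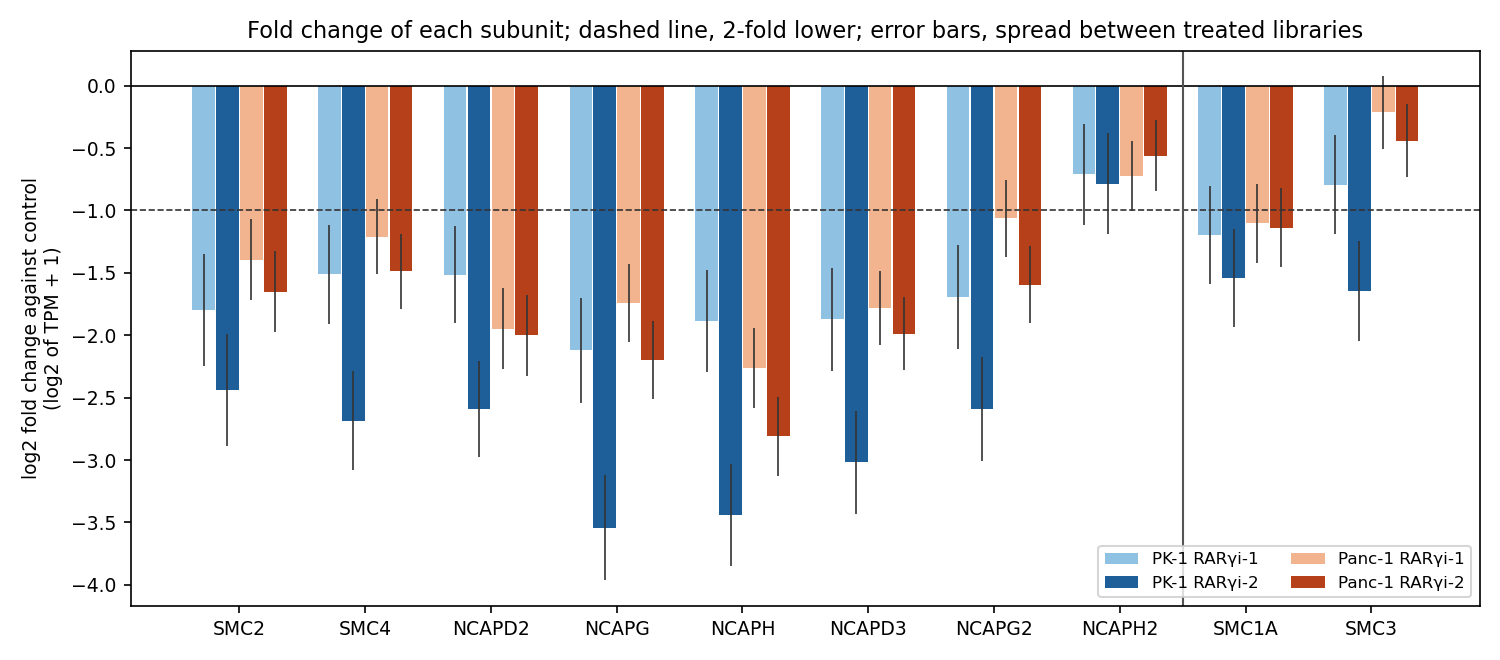
Log2 fold change against control, on the scale of log2 of (TPM + 1), for each subunit (groups of bars) in the 4 comparisons (colours); error bars are the spread between the treated libraries of the line. The NCAPH2 bars, from -0.78 to -0.56, stop short of the dashed line at 2-fold, which the other 7 condensin subunits pass in each comparison.

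SMC1A (8243) fell more than 2-fold in each comparison, though by less than most condensin subunits. It was at 38.4, 16.2 and 12.6 TPM in PK-1 cells and 41.3, 18.7 and 18.2 TPM in Panc-1, and its log2 fold changes were -1.20 and -1.54, and -1.10 and -1.14. The control libraries were the highest in both lines, and the treated libraries of a line differed by less than the spread. SMC3 (9126), its partner, was at 88.8, 50.8 and 27.7 TPM in PK-1 cells and 73.1, 62.8 and 53.5 TPM in Panc-1. It was past 2-fold only with RARγi-2 in PK-1, at -1.65. Its other log2 fold changes were -0.79 with RARγi-1 in PK-1, -0.21 with RARγi-1 in Panc-1, which is within the spread, and -0.44 with RARγi-2 in Panc-1.

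Set against each other, the condensin median was lower than the cohesin mean in every comparison. The difference was -0.75 (log2) with RARγi-1 and -1.05 with RARγi-2 in PK-1 cells, and -0.91 and -1.03 in Panc-1. Subunits measured in 1 library are not replicates, and the difference was not tested. The difference depended on which cohesin gene was used, most in Panc-1. There it was -0.47 and -0.68 against SMC1A alone, and -1.35 and -1.38 against SMC3 alone. In PK-1 cells it was -0.55 and -1.10 against SMC1A alone, and -0.95 and -0.99 against SMC3 alone. Condensin subunits lower than SMC1A numbered 7 of 8 in each comparison except Panc-1 RARγi-1, where they numbered 6. NCAPH2 lay above SMC1A in all 4 comparisons and below SMC3 only in Panc-1. Summed over subunits, condensin made up 79.4% and 79.1% of the TPM of the 10 members in the controls of PK-1 and Panc-1, 71.4% and 69.5% in the treated libraries of PK-1 cells, and 65.6% and 65.7% in Panc-1.

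**Figure D3:**
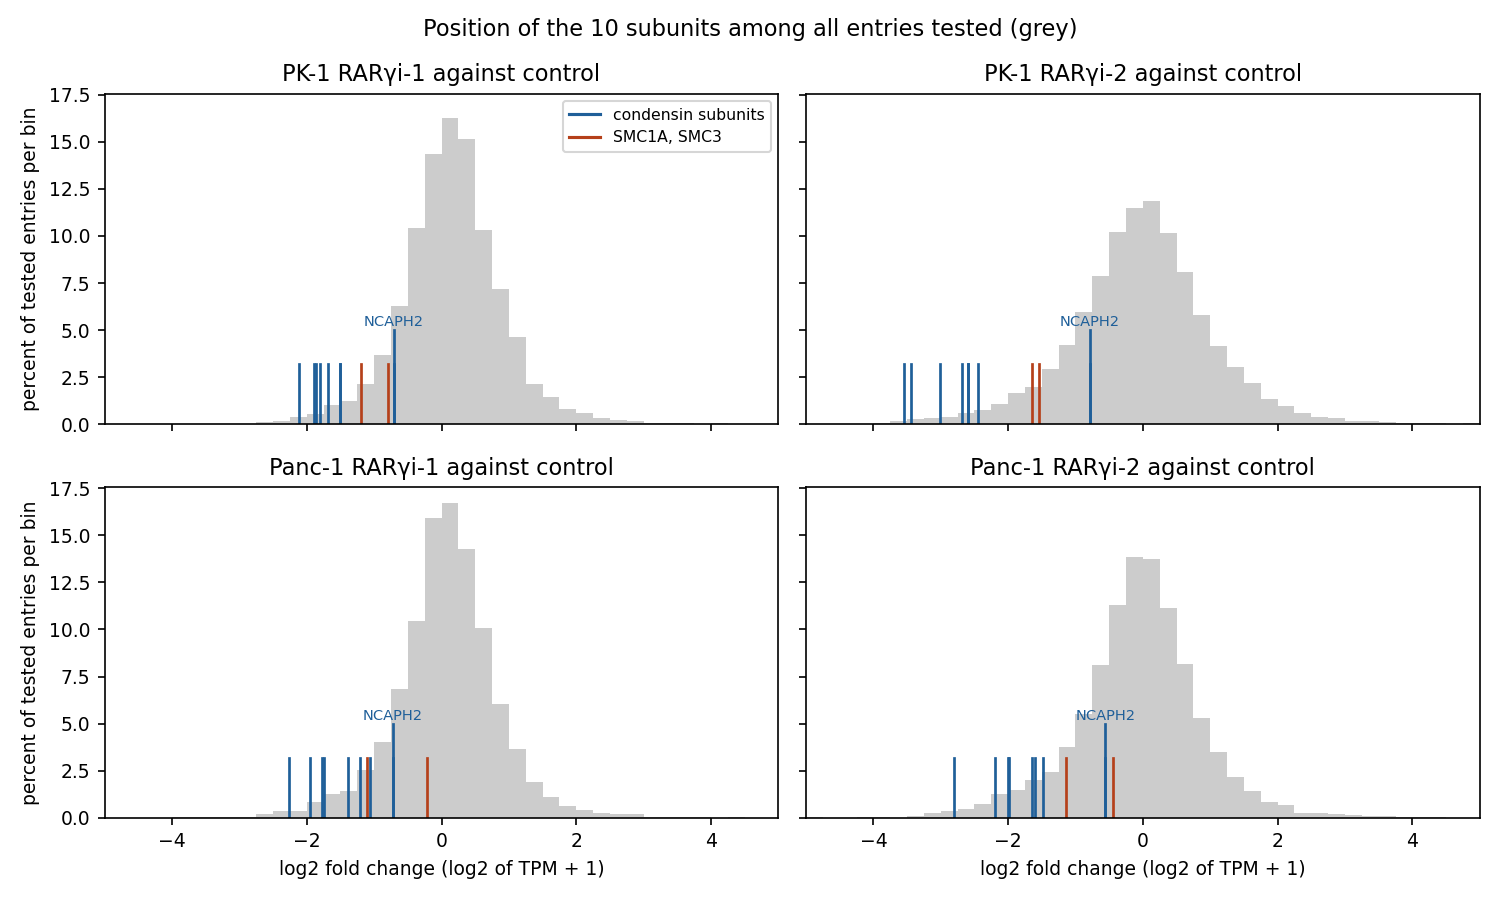
Distribution of the log2 fold changes of all tested entries (grey, percent of entries per bin of 0.25) in the 4 comparisons, with the 8 condensin subunits (blue lines) and SMC1A and SMC3 (red lines). Condensin subunits other than NCAPH2 lie in the left tail, and in the Panc-1 panels SMC3 lies in the body of the distribution.

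Ranked among the 11268 tested entries of PK-1 and the 11056 of Panc-1, the 7 condensin subunits other than NCAPH2 lay between the percentiles 0.488 and 2.24 with RARγi-1 and between 0.311 and 2.10 with RARγi-2 in PK-1. In Panc-1 they lay between 0.705 and 6.37 with RARγi-1 and between 0.751 and 6.87 with RARγi-2. NCAPG was the lowest member in PK-1 and NCAPH in Panc-1. NCAPH2 lay at the percentiles 10.3 and 19.6 in PK-1 cells and 11.7 and 24.3 in Panc-1. SMC1A lay at 3.90 and 7.15 in PK-1 cells and 5.88 and 10.5 in Panc-1, with RARγi-1 there below NCAPG2 at 6.37. SMC3 lay at 8.54 and 6.26 in PK-1 cells, and at 30.6 and 29.3 in Panc-1.

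The ratio of 2 genes within a library does not depend on how libraries are scaled, and the subunits of condensin I can be set over their condensin II counterparts in this way. The ratio of the kleisins, NCAPH over NCAPH2, was 0.668 in the PK-1 control, 0.279 with RARγi-1 and 0.0808 with RARγi-2, and 0.610, 0.190 and 0.108 in Panc-1. Without a pseudocount, this ratio was 2.40-fold to 8.26-fold lower than in the control of the line. Its log2 change with RARγi-2 in PK-1, where NCAPH was at 2.79 TPM, was -3.05, and -2.66 with a pseudocount of 1. For NCAPG over NCAPG2 the ratios were 1.26, 0.926 and 0.577 in PK-1 cells, and 1.05, 0.634 and 0.663 in Panc-1, between 1.36-fold and 2.19-fold lower than control. NCAPD2 over NCAPD3 went the other way in PK-1, from 3.51 to 4.77 and 5.61, and stayed within 1.73 to 1.95 in Panc-1. The condensin I gene was thus lower relative to its counterpart for the kleisins and the NCAPG pair, and not for the NCAPD pair. SMC2 over SMC4 was 0.369, 0.288 and 0.409 in PK-1 cells, and went from 0.185 in the control to 0.148 with RARγi-2 in Panc-1. The cohesin ratio of SMC1A over SMC3 was 0.433, 0.318 and 0.454 in PK-1, and went from 0.566 to 0.298 and 0.340 in Panc-1.

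**Figure D4:**
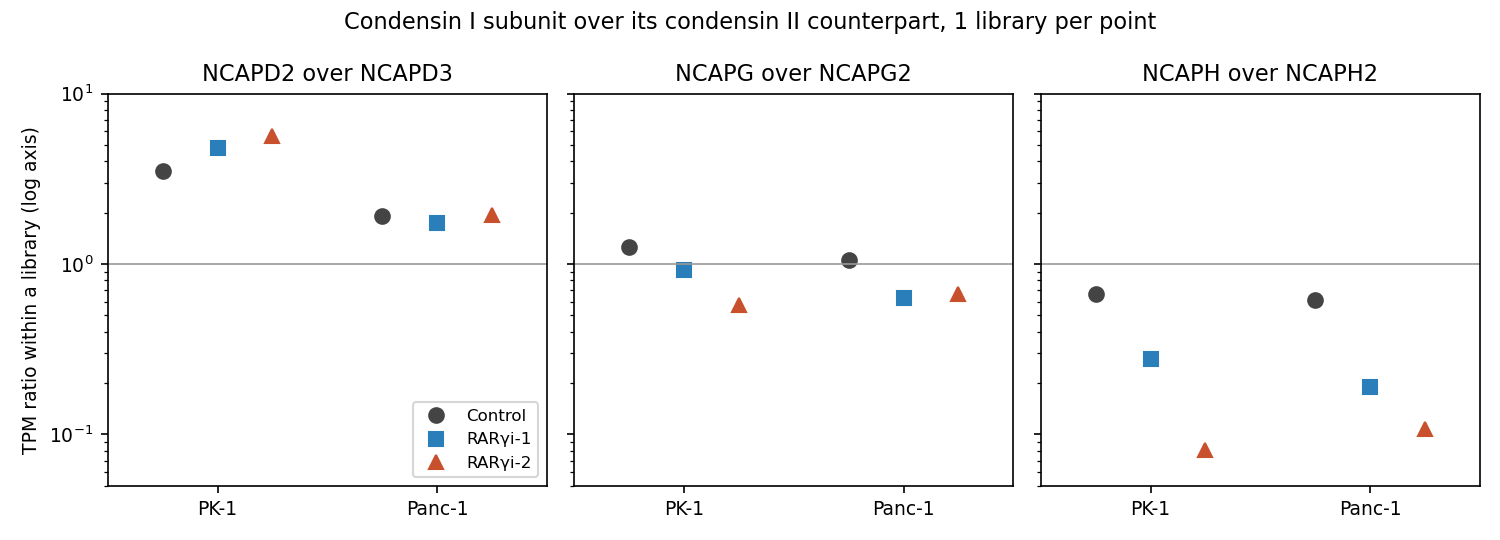
TPM ratio (log axis) of each condensin I subunit over its condensin II counterpart, 1 point per library. In the right panel NCAPH over NCAPH2 is highest in both controls, at 0.668 and 0.610, and lowest in the RARγi-2 libraries, at 0.0808 and 0.108.

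The levels with the antagonists are given side by side, since the RNA-seq doses are not stated. In PK-1, all 10 members were lower in the RARγi-2 than in the RARγi-1 library, 8 of them by more than the spread, and 65.5% of all tested entries were lower in that direction. The median difference over condensin was -1.11 (log2), and those of SMC3 and SMC1A were -0.85 and -0.34. In Panc-1, 9 of the 10 members were lower with RARγi-2, 3 of them by more than the spread: NCAPG, NCAPH and NCAPG2, at -0.45, -0.55 and -0.53; of all tested entries, 64.7% were lower in that direction. NCAPH2 was the exception in Panc-1, at 0.17, within the spread. The share of all entries past the spread was not computed, so the counts of 8 and 3 have no background. The spread is also taken about the local median, whereas the member differences were not centred.

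Since 9 of the members were past 2-fold lower in at least 1 comparison, the promoters of all members were searched for sequence elements of cell cycle genes. RefSeq windows from 250 bases before to 50 bases after an annotated start (GRCh38.p14) were at hand for 9 of the 10 members, in 13 windows, with several starts for SMC2, SMC4, NCAPD3 and SMC1A. The letters TTTGAA are a form of the cell cycle homology region (CHR) through which the DREAM and MuvB complexes act. They occurred on either strand in 6 of 7 condensin genes, NCAPH being the exception, and in SMC3. By window, they occurred in 6 of 10 windows of condensin and 1 of 3 of cohesin. Of all 35116 windows in the table, 15.2% held these letters, and of all genes, 18.2%. CCAAT, the NF-Y element, occurred in NCAPD2, NCAPH and NCAPD3, against 39.7% of all genes and 34.6% of all windows. TTTCCCGC, an E2F element, occurred in 1 window each of NCAPD3 and SMC1A, against 1.98% of all genes and 1.63% of all windows. TTCGAA, TTTGGCGC and AGGTCA, an element of nuclear receptors, held by 1.45%, 0.652% and 13.8% of all windows, were found in none of the members' windows. The searched elements did not overlap in the windows printed here. A match of letters is a description, not a binding site. Printed here are 3 condensin promoters with TTTGAA, from both condensins, and for comparison those of the cohesin pair. Capitals mark the matches to the CHR, NF-Y and E2F letters given above, on either strand, and the last 50 bases begin at the annotated start.
NCAPD2, condensin I, chr12:6493852-6494151, plus strand: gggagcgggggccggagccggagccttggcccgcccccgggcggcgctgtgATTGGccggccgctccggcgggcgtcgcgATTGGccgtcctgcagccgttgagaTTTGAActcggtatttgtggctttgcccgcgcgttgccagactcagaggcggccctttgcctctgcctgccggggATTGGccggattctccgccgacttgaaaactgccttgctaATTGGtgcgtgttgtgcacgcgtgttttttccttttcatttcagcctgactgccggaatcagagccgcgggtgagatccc
NCAPG, condensin I, chr4:17810729-17811028, plus strand: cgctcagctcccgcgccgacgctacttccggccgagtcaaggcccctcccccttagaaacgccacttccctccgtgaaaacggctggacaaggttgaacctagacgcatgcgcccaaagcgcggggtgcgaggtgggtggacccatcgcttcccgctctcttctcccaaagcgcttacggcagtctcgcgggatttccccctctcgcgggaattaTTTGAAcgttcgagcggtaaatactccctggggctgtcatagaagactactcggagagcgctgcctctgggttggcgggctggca
NCAPD3, condensin II, chr11:134223918-134224217, minus strand: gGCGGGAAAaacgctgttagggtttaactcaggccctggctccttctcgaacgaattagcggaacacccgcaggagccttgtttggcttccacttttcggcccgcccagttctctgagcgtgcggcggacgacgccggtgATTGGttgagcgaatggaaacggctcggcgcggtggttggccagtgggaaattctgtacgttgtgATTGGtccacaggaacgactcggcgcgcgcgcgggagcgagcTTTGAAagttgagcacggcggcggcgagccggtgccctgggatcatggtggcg
SMC1A, cohesin, chrX:53422605-53422904, minus strand: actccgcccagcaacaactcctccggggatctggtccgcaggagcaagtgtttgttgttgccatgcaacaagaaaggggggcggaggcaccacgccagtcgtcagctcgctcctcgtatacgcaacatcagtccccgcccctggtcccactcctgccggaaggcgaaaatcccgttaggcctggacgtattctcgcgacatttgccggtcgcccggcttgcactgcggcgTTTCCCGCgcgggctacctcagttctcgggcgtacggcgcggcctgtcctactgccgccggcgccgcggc
SMC3, cohesin, chr10:110567445-110567744, plus strand: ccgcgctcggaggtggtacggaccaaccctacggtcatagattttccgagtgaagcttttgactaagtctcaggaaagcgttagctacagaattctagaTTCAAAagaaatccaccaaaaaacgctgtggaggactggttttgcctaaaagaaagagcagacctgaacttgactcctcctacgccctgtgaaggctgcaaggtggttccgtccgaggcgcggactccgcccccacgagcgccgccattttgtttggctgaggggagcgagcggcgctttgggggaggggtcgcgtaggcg

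NCAPD2 held TTTGAA starting 145 bases before its start together with 4 CCAAT elements, and NCAPG held it 35 bases before the start without a CCAAT. In the printed NCAPD3 window it spanned the start itself, with CCAAT elements beginning 110 and 45 bases before it. For NCAPD3, SMC1A, SMC2 and SMC4, the window of the other start held none of the searched elements. In NCAPG2, which is not printed, TTTGAA began 35 bases after the start. In SMC3, TTTGAA began 151 bases before the start. NCAPH held a CCAAT and no TTTGAA. A relation of these letters to the fold changes was not tested.

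Of the other core subunits of cohesin, the kleisin RAD21 was at 176, 106 and 73.4 TPM in PK-1 cells and 112, 68.1 and 57.7 TPM in Panc-1. It was past 2-fold only with RARγi-2 in PK-1, at -1.25, and its other log2 fold changes ran from -0.94 to -0.70. STAG2 was at 45.9, 42.4 and 38.4 TPM in PK-1 cells and 23.5, 24.6 and 23.6 TPM in Panc-1, and STAG1 at 26.0, 19.5 and 25.8 TPM and 18.8, 16.6 and 24.3 TPM. These alternative subunits, which bind the kleisin, were within 2-fold of control in every comparison, with log2 fold changes from -0.40 to 0.36. The sign of STAG1 with RARγi-2 in PK-1 (-0.01) and that of STAG2 with RARγi-1 in Panc-1 (0.06) turned when the libraries of a line were rescaled to a common median ratio. NCAPH over RAD21, the ratio of the kleisins of condensin I and cohesin, was 0.228, 0.0953 and 0.0380 in PK-1 cells, and 0.321, 0.0982 and 0.0738 in Panc-1.

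**Figure D5:**
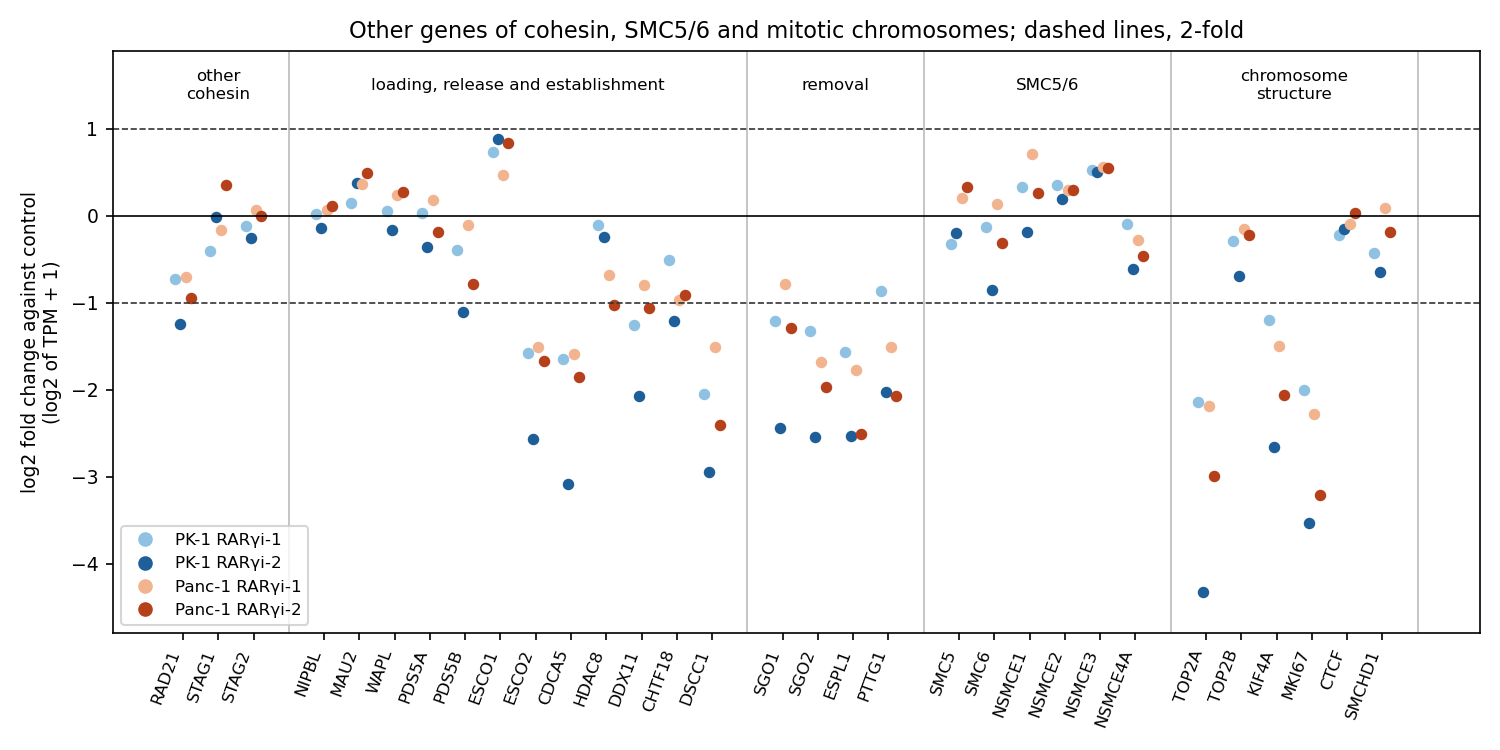
Log2 fold change (log2 of TPM + 1) of other genes of cohesin, of SMC5/6 and of mitotic chromosome structure, 1 point per comparison, with dashed lines at 2-fold. All 6 SMC5/6 genes lie between the dashed lines, and TOP2A reaches -4.33; points close to 0, such as those of NIPBL, WAPL, PDS5A, STAG1 and STAG2, change sign on rescaling in 1 or 2 comparisons.

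Of 12 genes that load, release or establish cohesin, 4 (RARγi-1) and 6 (RARγi-2) were more than 2-fold lower in PK-1 cells, and 3 and 5 in Panc-1; none was more than 2-fold higher. The median log2 fold changes of the list were -0.25 and -0.73 in PK-1 cells, and -0.39 and -0.84 in Panc-1. The 3 genes past 2-fold in each comparison take part in tying sister chromatids together: DSCC1, a subunit of an alternative PCNA loader, with log2 fold changes of -2.05 and -2.95 in PK-1 cells and -1.51 and -2.41 in Panc-1; CDCA5, which encodes the cohesion protector sororin, with -1.64 and -3.09, and -1.58 and -1.85; and ESCO2, an acetyltransferase of SMC3, which reached the floor in both RARγi-2 libraries from 10.9 TPM in PK-1 cells and 5.37 TPM in Panc-1, so that its decrease there is a lower limit. At the other end were ESCO1, the other SMC3 acetyltransferase, with log2 fold changes from 0.47 to 0.88, and MAU2, part of the cohesin loader, with 0.15 to 0.49. NIPBL, the main loader subunit, was between -0.14 and 0.11, and its sign with RARγi-1 turned on rescaling in both lines.

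The 4 genes that protect cohesin or remove it in mitosis were lower as well. In PK-1, 3 (RARγi-1) and 4 (RARγi-2) were past 2-fold, and the same numbers were found in Panc-1. ESPL1, which encodes the kleisin-cutting protease separase, went in PK-1 from 14.2 TPM to 4.16 and 1.63 TPM and, in Panc-1, from 28.8 TPM to 7.76 and 4.22 TPM. SGO1 missed 2-fold with RARγi-1 in Panc-1, at -0.79, and PTTG1 (securin) with RARγi-1 in PK-1, at -0.86. Of the germline cohesin genes, SMC1B, STAG3 and RAD21L1 were at the floor in all libraries and REC8 did not exceed 3.54 TPM.

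SMC5/6, another SMC complex, which acts in DNA repair, was within 2-fold of control for all 6 genes in all 4 comparisons, with medians of 0.12 and -0.19 in PK-1 cells, and 0.26 and 0.28 in Panc-1. Its values ran from -0.85 (SMC6, PK-1 RARγi-2) to 0.71 (NSMCE1, Panc-1 RARγi-1). Among 6 partners in chromosome structure, 3 were more than 2-fold lower in each comparison: TOP2A, MKI67 and KIF4A. TOP2A, the mitotic topoisomerase, went in PK-1 from 243 TPM to 54.2 and 11.1 TPM and, in Panc-1, from 127 TPM to 27.3 and 15.2 TPM. Its paralog TOP2B, used outside mitosis, was between -0.69 and -0.15, and CTCF, which positions cohesin loops, between -0.21 and 0.03.

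For comparison, 14 genes of the G2 and M phases showed median log2 fold changes of -1.54 and -3.20 in PK-1 cells, and -1.57 and -2.30 in Panc-1, and 14 S phase genes had -2.15 and -3.23, and -1.92 and -2.21. Of the former, 14 were past 2-fold lower in each comparison except Panc-1 RARγi-1, where 13 were. In PK-1, 12 (RARγi-1) and 13 (RARγi-2) of the latter were past 2-fold lower, and 12 with either antagonist in Panc-1. The condensin medians lay nearer to 0 than those of both lists with RARγi-2 in either line. With RARγi-1, the condensin median of -1.75 in PK-1 lay between the medians of the lists, and that of -1.57 in Panc-1 equalled the G2 and M median to 2 decimals. These differences were not tested. By Euclidean distance over the 4 log2 fold changes, the entries nearest to the condensin mean among 10629 with at least 10 TPM in a library were ESCO2, CENPI, KIAA1524, FANCI and INCENP, at distances of 0.15 to 0.25, ESCO2 with its RARγi-2 levels at the floor. With NCAPH2 left out of the condensin mean, the nearest entries were CDCA2, INCENP, POLE2, CENPI and KNL1, at 0.17 to 0.25. Those nearest to the cohesin mean were UMPS, SERBP1, FANCG, SLBP and NUP153, at 0.05 to 0.14. In Panc-1 the cohesin mean lay between unlike genes, with SMC1A at -1.10 and SMC3 at -0.21 for RARγi-1.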

How the data were processed

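RNA-seq of 6 libraries was used, 1 per condition. The authors deposited log2 values of TPM, floored at 1 TPM; the submitters' processing notes name hg38, and the aligner, counter and annotation are not given in the sources used here. Libraries were made with a strand-specific mRNA kit, and the pseudogenes NCAPD2P1, NCAPGP1 and NCAPGP2 and the antisense entry SMC2-AS1 were at the floor in all libraries. The deposited log2 values were converted to linear TPM. Fold changes used a pseudocount of 1 TPM and a threshold of 2-fold within a line, where 1 library per condition allows no test. An added fit over both lines used limma 3.58.1 (R 4.3.3) on log2 of (TPM + 1), with cell line as a block, a variance trend and Benjamini-Hochberg adjustment over all entries; it takes each line as 1 pair per antagonist, and both antagonists share the controls. Alternatives were pseudocounts of 0 and 0.1, median-ratio rescaling within a line, thresholds of 1.5-fold and 3-fold, no minimum level, and other ways to summarise the complexes. Fold changes, rescaling and the limma fit were tested on simulated data. The members and lists were chosen with earlier results of these data known. Named are all members, the counterparts of members (RAD21, STAG1, STAG2, TOP2A), and the 2 lowest and 2 highest genes of a list by mean log2 fold change where a result turns on them; ESCO2, NIPBL, TOP2B, KIF4A, REC8, SMC6 and NSMCE1 were added after their values were seen. Promoters came from RefSeq (GRCh38.p14). Python 3.11.15, pandas 2.3.3 and numpy 2.4.6 were used.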

Additional observations from a re-analysis of the deposited data

Results flagged for a closer look

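In 3 of the listed genes, both treated libraries moved one way in PK-1 and the other way in Panc-1; the difference between the lines was not tested, and no member did so. For CDC6, which loads the replicative helicase, PK-1 gave -0.52 and -0.55 (log2 fold change with RARγi-1, then RARγi-2), against a spread of 0.32. Panc-1 gave 0.22, which is within the spread of 0.29, and 0.95. For SMC5, PK-1 gave -0.33 and -0.20 and Panc-1 gave 0.21 and 0.33, against spreads of 0.41 and 0.33. Only the SMC5 value with RARγi-2 in Panc-1 passed the spread, by a narrow margin (0.333 against 0.327). For STAG2, PK-1 gave -0.11 and -0.25 and Panc-1 gave 0.0632 and 0.00368, all within the spread, and the value of 0.0632 became -0.0145 on rescaling.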

How the results depend on the processing

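None of the 40 log2 fold changes of members (10 genes in 4 comparisons) moved by more than the spread or crossed 2-fold with a pseudocount of 0 or 0.1 or after rescaling; the largest move was 0.42. Rescaling shifts log2 fold changes by -0.14 in PK-1 RARγi-1, by -0.08 in Panc-1 RARγi-1 and by 0.02 or less in the others, so relative to the median entry the decreases with RARγi-1 are larger by these amounts. With a 3-fold threshold, PK-1 had 5 of 10 members lower than control for RARγi-1, against 8 for RARγi-2. Panc-1 had 4 for RARγi-1, against 6 for RARγi-2. The share of all tested entries past 3-fold was not computed, so these counts have no background. The difference of condensin minus cohesin stayed below 0 in every alternative. With condensin I alone it was -1.85 in PK-1 RARγi-2, and -1.29 and -1.41 in Panc-1; with condensin II alone it was -0.40 in Panc-1 RARγi-1. Against the median of 5 cohesin subunits (with RAD21, STAG1 and STAG2) it was -1.35 and -1.38 in Panc-1, the values also found against SMC3 alone, the median gene there; against SMC1A alone it was -0.47 and -0.68. Comparisons with a single cohesin gene or without NCAPH2, and the pseudocount for ratios, were added after the data had been seen. The change of NCAPD2 over NCAPD3 with RARγi-2 in Panc-1, 0.0289 (log2), became -0.0120 with a pseudocount of 1. With the libraries paired by cell line (line as a block in limma), 6 members were called lower with RARγi-1 and 9 with RARγi-2. Of all entries, 1.55% and 11.7% were called lower. This fit was added after the data had been seen. For either antagonist, 8 members were past 2-fold lower in both lines. The share of all entries past 2-fold in both lines was not computed, so that count has no background. Leaving out a library was not run, since it would leave a line without a control or an antagonist with 1 pair. TPM keeps no depth, so counting error cannot be set beside any value.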
